A study of Mus musculus with 4 samples.

Results

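The core circadian clock of hair follicle stem cells (HF-SCs) is described here through 10 genes, the activators *Arntl* and *Clock*, the repressors *Per1*, *Per2*, *Per3*, *Cry1* and *Cry2*, the nuclear receptor genes *Nr1d1* and *Nr1d2*, and the output gene *Dbp*. They were chosen by gene symbol and by a measured value, a mean normalized read count above 0 in the deposited table. All 10 were found, among 24421 listed genes, of which 17044 had a mean above 0. The RNA came from stem cells sorted by FACS from mouse back skin at postnatal day 44, in 2 control libraries and 2 libraries of *miR-205*-induced mice. Every mouse carried a *Krt14*-H2BGFP allele, which marks the nuclei of keratinocytes, and the strain is labelled C57BL/6. The induced mice also carried a *pTRE2-miR-205* transgene, made in FVB founders, and a *Krt14*-rtTA driver, so the induction covers all cells with an active *Krt14* promoter and not the stem cells alone. Doxycycline chow, which switches the transgene on, was given for 2 d from postnatal day 42. The labels call the control mice untreated, while the protocol has both groups fed the drug, and the methods have RNA-seq repeated on pairs of control and inducible mice with littermate controls. Live cells with high H2BGFP, no Sca1, high α6 integrin and high CD34 were collected, and no hour of the day at which skin was taken is given in the sources used here.

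What was measured is 1 signal per gene, the authors' mean normalized count over all 4 libraries, that is, read counts divided by a size factor per library and averaged. The authors' own columns comparing induced with control mice were not used, and the mean alone holds no difference between the groups. No comparison of induced with control mice was therefore made, no test was run, and no clock phase was read from the activator and repressor levels. The 15 printed digits of the mean do hold more, because a mean of whole reads divided by fixed size factors can be taken apart again into the reads of each library. The 4 libraries so recovered carry no label. They are named A, B, C and D in order of relative depth, with size factors of 1.24, 1.18, 0.966 and 0.716, and are not matched to the groups. For means over 500, a solution was sought with every library between 0.5 and 2 times the mean. *Per2* and *Cry1* kept 1 solution when this range was widened to between 0.3 and 3 times. The wider range was tried for members only, so the library values of other genes with means over 500 rest on the narrower one. Total reads per library were not recovered, since the most abundant genes were not taken apart.

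The labelled cell type was checked against marker genes. All 12 genes listed as HF-SC markers had a mean above 0, from 134 for *Fgf18* to 146090 for *Krt5*, with 14575 for *Cd34* and 119883 for the bulge keratin *Krt15*. The paper marks epithelial cells by *Krt5* and *Krt14*, so these keratins alone do not set HF-SCs apart from other keratinocytes. The gene of the gated-out Sca1, *Ly6a*, had a mean of 136. It is a short gene, and per kilobase of exon its level was 166. That was above *Fgf18* at 113, just below *Tcf7l1* at 178 and far below *Cd34* at 5561. Markers of other cells were present too, with means from 604 to 7246 for suprabasal keratinocytes, 53.6 to 3085 for sebaceous gland, 87.6 to 2744 for myeloid cells, 39.5 to 5186 for fibroblasts, 9.77 to 498 for melanocytes and 17.3 to 36.4 for endothelium. Per kilobase of exon, the myeloid *Cd74* reached 1946, above the HF-SC markers *Sox9* at 1343 and *Lhx2* at 1024 and below *Cd34*. None of the markers listed in the table was at 0. In such sorted bulk RNA, fewer cells that express a gene and less RNA of it per cell cannot be told apart.

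As background, the clock is a loop of transcription that repeats about once a day. The proteins of *Arntl* (BMAL1) and *Clock* pair and bind E-boxes, DNA elements in the promoters of the *Per* and *Cry* genes, whose proteins then return to the nucleus and block the pair that made them. The same pair drives *Nr1d1* and *Nr1d2*, which encode REV-ERBα and REV-ERBβ, repressors that bind ROR elements and hold *Arntl* down, and *Dbp*, whose protein activates genes with a D-box. In skin, the clock runs in keratinocytes and in the cells of the hair follicle, where its genes are known to vary with the time of day.

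The promoters of the members were searched for the letters of these elements, and the stretches that hold a match are printed to show which members carry them near an annotated start. Windows of 300 bases, from 250 before to 50 after the annotated start, came from RefSeq (GRCm38.p6) and were found for 9 of the 10 genes, all but *Per2*. *Arntl* and *Per1* have 2 windows each and *Clock* has 3, for different starts, and a gene was counted if any of its windows held the motif. Each stretch is written 5′ to 3′ on the strand of the gene, with the motif in capitals. The first lines hold the E-box CACGTG or its variant CACGTT, searched on both strands, so that the variant can appear as AACGTG.

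*Cry1*, E-box, 60 bases before the start, chr10:85185089-85185134, minus strand: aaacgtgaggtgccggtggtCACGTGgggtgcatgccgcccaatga
*Cry1*, E-box variant, 79 bases before the start, chr10:85185108-85185153, minus strand: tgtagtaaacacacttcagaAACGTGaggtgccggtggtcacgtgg
*Per1*, E-box, 166 bases before the start, chr11:69098763-69098808, plus strand: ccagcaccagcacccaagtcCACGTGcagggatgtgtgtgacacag
*Cry2*, E-box variant, 166 bases before the start, chr2:92434210-92434255, minus strand: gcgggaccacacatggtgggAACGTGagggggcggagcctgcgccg
*Nr1d1*, E-box variant, 28 bases before the start, chr11:98775380-98775425, minus strand: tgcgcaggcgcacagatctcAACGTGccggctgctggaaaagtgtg

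The other motifs searched on both strands were the core of the ROR element, TAGGTCA or TGGGTCA, the D-box as TTATGTAA, TTATGCAA or TTACGTAA, and the cAMP response element TGACGTCA. The first of them lies in *Arntl*, the target of the REV-ERB repressors, and the D-boxes lie in 2 *Per* genes.

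*Arntl*, ROR element core, 30 bases after the start, chr7:113207521-113207560, plus strand: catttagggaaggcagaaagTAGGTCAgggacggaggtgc
*Per1*, D-box, 24 bases before the start, chr11:69098905-69098952, plus strand: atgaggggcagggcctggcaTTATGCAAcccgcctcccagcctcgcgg
*Per3*, D-box, 205 bases before the start, chr4:151044843-151044890, minus strand: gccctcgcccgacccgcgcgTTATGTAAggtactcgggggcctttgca
*Per3*, D-box, 158 bases before the start, chr4:151044796-151044843, minus strand: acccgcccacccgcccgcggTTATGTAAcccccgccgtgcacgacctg

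The E-box stood in 2 of the 9 genes, against 8.09% of 27025 genes with such a window, and the variant stood in 3, against 5.44%. With either form counted, 4 members held one, *Cry1*, *Cry2*, *Nr1d1* and *Per1*, against 13.0% of all genes. The ROR element core stood in 1 member, against 7.35%, and the D-box in 2, against 2.1%. The cAMP response element stood in none of the 9 genes and in 2.03% of all genes. The windows of *Clock*, *Nr1d2* and *Dbp* held none of these letters, which says nothing about elements elsewhere in those genes. A match of letters is a description and not a site of binding.

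**Figure D1:**
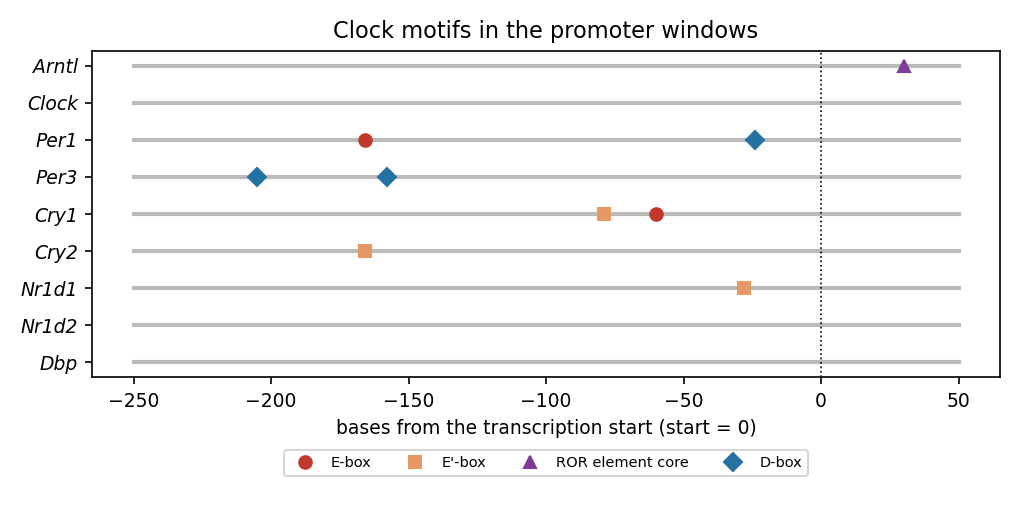
Positions of the clock motifs in the promoter windows of 9 clock genes, in bases from the annotated transcription start of the window (x axis) for each gene (rows, with all windows of a gene on 1 line); grey lines are the span searched and symbols are motif matches on either strand. *Cry1* carries 2 matches close together at 79 and 60 bases before the start, *Per3* carries 2 D-boxes, and the only match after a start is the ROR element core of *Arntl*, 30 bases downstream.

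All 10 members lay above the median of the measured genes, *Arntl* by the least. Levels of different genes are compared per kilobase (kb) of exon, with the union of all annotated exons of a gene as its length (GENCODE vM1 on NCBIM37), because longer RNAs give more reads. The median of the 10 was 428 normalized counts per kb, against 39.5 for the 16338 measured genes whose length is known. Since the rule asked for a mean above 0, a place above the bottom of that distribution was partly given. In order of level per kb the genes were *Nr1d1*, *Per1*, *Nr1d2*, *Dbp*, *Cry2*, *Cry1*, *Per2*, *Clock*, *Per3* and *Arntl*, and the first was 20.04 times the last. The REV-ERB genes, *Per1* and *Dbp* thus made up the top of the order, and both activators lay in its lower part. With the longest transcript as length 4 members changed rank, and with the longest coding sequence 6 did, but *Nr1d1* stayed the highest and *Arntl* the lowest under each.

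**Figure D2:**
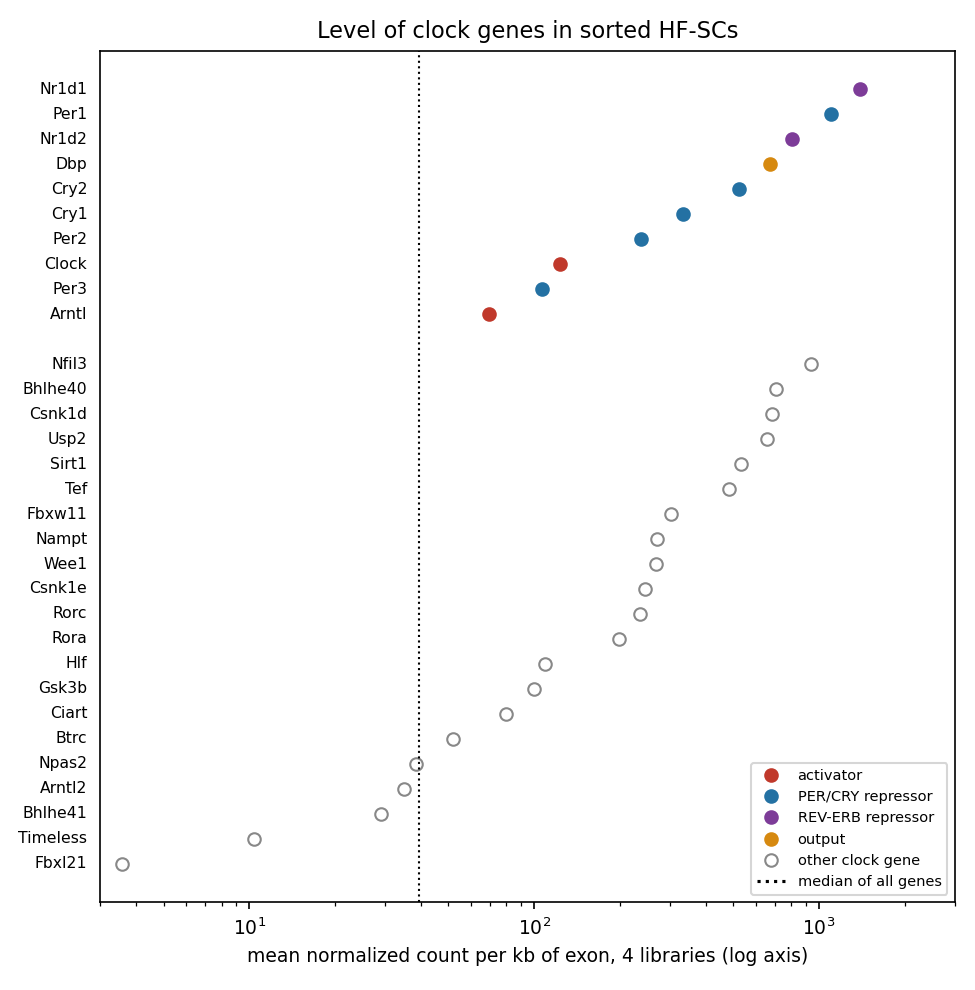
The mean level of clock genes in sorted HF-SCs over the 4 libraries, as normalized counts per kb of exon on a log axis; filled points are the 10 core genes coloured by role, open points the 21 other clock genes with a mean above 0, and the dotted line is the median of all genes. The core genes run from 69.3 for *Arntl* to 1389 for *Nr1d1*, all to the right of the median of 39.5.

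By median level per kb the activators were the least abundant arm, at 96.2, but the arms overlap. *Clock* lay above *Per3*, and with the longest coding sequence as length, at 422, also above *Per2* at 364. *Arntl* (ENSMUSG00000055116.6, NCBIM37 chr7:120350979-120457636, plus strand) encodes BMAL1, without which the loop does not turn. It had a mean of 203 normalized counts, at percentile 58.9 of all measured genes (those above 0), and 69.3 per kb. In the 4 libraries its level was 229 in A, 161 in B, 221 in C and 200 in D, from 283, 190, 214 and 143 reads. Library B was the lowest and A the highest, at 1.42 times B. The 95% exact Poisson interval, which covers counting error only since read pairs without molecular identifiers are not independent molecules, was 203 to 257 in A and 139 to 186 in B, and these do not overlap. The intervals of C, 193 to 253, and D, 168 to 235, overlap that of A.

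*Clock* (ENSMUSG00000029238.7, chr5:76639992-76733817, minus strand), the partner of *Arntl*, had a mean of 1087, at percentile 86.7, and 123 per kb. Per kb it was 1.78 times *Arntl*. Its mean can be written with whole reads in 2 ways, 1205, 822, 1591 and 730 in A to D or 1229, 1065, 910 and 1143, and the printed digits do not decide between them. Its level in single libraries is therefore known only as this pair of solutions, with A above B in both.

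*Clock* is also the member with a full seed match to the induced microRNA. A microRNA pairs through its bases 2 to 8, the seed, with sites in the 3′ untranslated region (3′UTR) of messenger RNAs and lowers them. The mature *miR-205*-5p, 22 bases from chr1:193507503-193507524 on the minus strand (RefSeq, GRCm38.p6), is shown with its seed in capitals, and the site in *Clock* with the 7 paired bases in capitals, in exon 22 of 22 and in the 3′UTR, at NCBIM37 chr5:76643124-76643130 on the minus strand within chr5:76643113-76643140.

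mmu-miR-205-5p: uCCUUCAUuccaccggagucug
*Clock* site: aattgttaggATGAAGGtcaaacaggtt

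The site lies 2594 bases after the stop codon, in a 3′UTR of 5732 bases, the longest among the members. No other member held ATGAAGG in its longest annotated 3′UTR, and 10.4% of 19915 genes with a 3′UTR did. Matches to bases 2 to 7 alone were found in 3 members, *Clock*, *Cry2* with 1 and *Nr1d2* with 2, against 32.4% of all genes. The letters are a description, and whether the RNA of *Clock* differed between induced and control mice was not tested here.

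The 5 *Per* and *Cry* repressors covered a wide range of levels, from 107 to 1107 per kb with a median of 334. *Per1* (ENSMUSG00000020893.11, chr11:68908719-68923462, plus strand) was the most abundant of them and also an early-response gene that glucocorticoids and cell stress induce. Its mean was 6236, at percentile 98.2. Per kb it was 4.68 times *Per2* and 10.4 times *Per3*. With 19 sets of whole reads in accord with its digits, its level in single libraries could not be given. Some genes that respond to the handling of tissue or to glucocorticoids were abundant in the same RNA. *Fos* had a mean of 49376, *Jun* 36481, *Egr1* 35524 and *Sgk1* 19819, beside 2449 for *Zbtb16* and 2589 for *Klf9*. *Fkbp5* and *Tsc22d3* were lower, with means of 465 and 515, or 73.6 and 119 per kb. The skin was digested with collagenase and trypsin before the sort, and the part of this step in the level of *Per1* was not tested.

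*Per2* (ENSMUSG00000055866.7, chr1:93312561-93355907, minus strand), a core repressor, had a mean of 1382, at percentile 89.9, and 237 per kb. Its level was 1556 in A, 1278 in B, 1349 in C and 1344 in D, from 963 to 1924 reads. B, C and D lay close together and A stood above them, at 1.22 times B. Of the genes with a mean of 100 to 500 that were drawn for a check, 31.8% had a smaller ratio of highest to lowest library. By the authors' size factors *Per2* thus varied less than most of them, though their lower counts add spread of their own. Its ratio was 1.35 with trimmed-mean and 1.36 with upper-quartile scaling, and 1.06 without library A. The checked genes were not ranked again under these settings.

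*Per3* (ENSMUSG00000028957.6, chr4:150377761-150418774, minus strand), the member of the family that the loop needs least, had a mean of 1026, at percentile 86.0, and 107 per kb. It too has 2 solutions, with 1029, 763, 1658 and 655 in A to D or 1054, 1006, 977 and 1068. In the second of these the 4 libraries are nearly equal, and in the first C is 2.53 times D, so nothing is said of its spread.

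Among the 5 members with 1 solution, the cryptochromes varied most over the libraries. *Cry1* (ENSMUSG00000020038.9, chr10:84594447-84647799, minus strand), the strongest repressor of the activator pair, had a mean of 1006, at percentile 85.7, and 334 per kb. Its level was 1279 in A, 869 in B, 722 in C and 1156 in D, from 1581, 1024, 698 and 828 reads. A and D were high, B and C low, and the lowest of the intervals of A and D, 1078, lies above the highest of B and C, 924. The highest library was 1.77 times the lowest, a ratio above that of 93.0% of the checked genes.

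*Cry2* (ENSMUSG00000068742.5, chr2:92243803-92274200, minus strand) had a mean of 3306, at percentile 96.0, and 523 per kb. Its level was 4215 in A, 2556 in B, 2699 in C and 3754 in D, from 2608 to 5212 reads. A and D were again the higher ones, and the highest was 1.65 times the lowest, above 89.2% of the checked genes. These values rest on the narrower range, and in the wider one 5 solutions exist. An exon of *D930015M05Rik* on the opposite strand covers 149 bases of *Cry2* exons, and the strand setting of the counting is not given in the sources used here.

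Ratios of 2 members within a library do not depend on the size factors. Per kb, *Cry2* was 1.57 times *Cry1* in A, 1.40 in B, 1.78 in C and 1.55 in D, and by the exact Clopper-Pearson 95% interval the lowest of these, 1.31 to 1.51, and the highest, 1.64 to 1.94, do not overlap. *Cry1* was 1.59 times *Per2* in A, 1.32 in B, 1.04 in C and 1.67 in D. In C the interval of this ratio, 0.945 to 1.14, includes 1, so the order of the pair is not set by the reads of that library. *Cry2* was 2.50 times *Per2* in A and 2.58 in D, but 1.85 times in both B and C. Relative to *Per2*, both cryptochromes were thus higher in A and D than in B and C, whichever scaling is used.

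Markers of other cells and of HF-SCs differed among the same libraries. The summed level of 4 myeloid markers (*Ptprc*, *Cd74*, *Lyz2* and *Cd207*) was 2180 in A, 5024 in B, 4254 in C and 2640 in D. The sum was mostly *Cd74*, whose reads rest on the narrower range. *Ptprc*, *Cd74* and *Lyz2* were each higher in B and C, where *Cry1* and *Cry2* were low, but *Cd207* was not, with 256 in A, 189 in B, 324 in C and 205 in D. The 4 melanocyte markers summed to 830 in A, 668 in B, 1949 in C and 335 in D, and the 3 endothelial markers to 92.2, 91.6, 113 and 39.1. The 3 HF-SC markers whose reads could be recovered, *Foxc1*, *Fgf18* and *Tcf7l1*, summed to 1982, 1563, 1550 and 1970. *Foxc1*, with 1266, 890, 822 and 1191, was high in A and D as the cryptochromes were, *Fgf18* was high in A alone, with 198, 103, 124 and 109, and *Tcf7l1* was highest in D and lowest in A, with 518, 569, 604 and 670. The part of stem cells or other cell types in the spread of the cryptochromes was not tested.

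**Figure D3:**
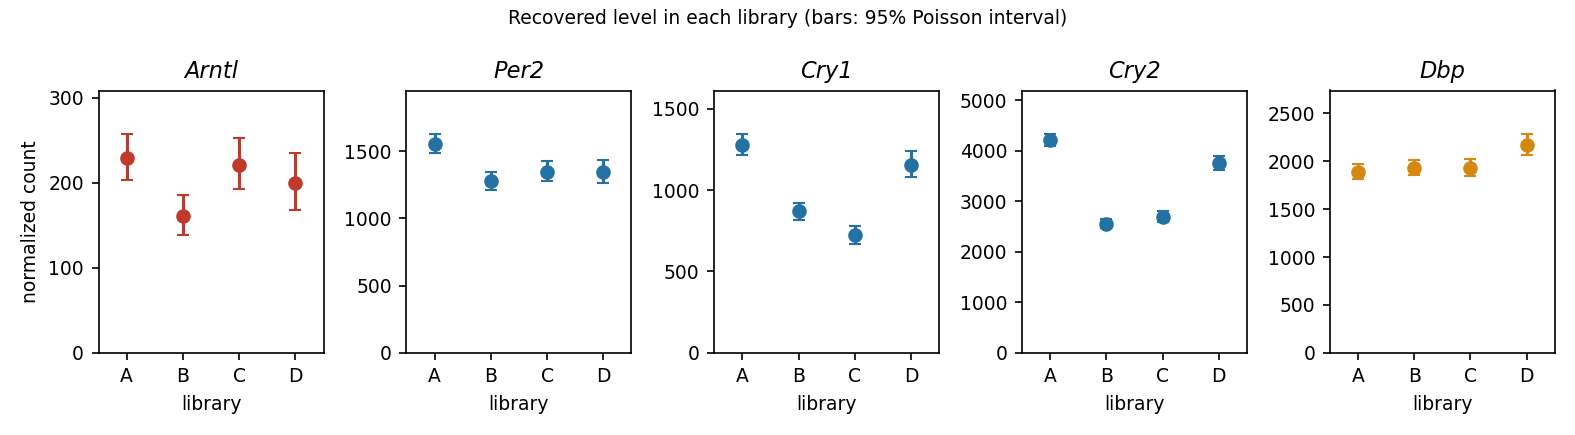
Level of the 5 members whose reads could be recovered in 1 way, as normalized counts (y axes, each starting at 0) in libraries A to D, which are lettered by depth and not matched to the groups; bars are 95% exact Poisson intervals, counting error only. *Cry1* and *Cry2* are high in A and D, *Per2* is high in A, *Arntl* is low in B, and *Dbp* lies between 1891 and 2172.

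The REV-ERB genes were the most abundant pair. *Nr1d1* (ENSMUSG00000020889.10, chr11:98629246-98636647, minus strand) encodes REV-ERBα, which represses *Arntl*. It had a mean of 4340, at percentile 97.1, and 1389 per kb, the highest of the 10. Its exons overlap those of *Thra*, a thyroid hormone receptor gene on the opposite strand, by 263 bases, so some reads of the end of either gene could be assigned to the other or dropped. *Nr1d2* (ENSMUSG00000021775.9, chr14:19036568-19071641, minus strand) encodes REV-ERBβ, with a mean of 4023, at percentile 96.8, and 803 per kb. Per kb, *Nr1d1* was 1.73 times *Nr1d2*. Their means can be written in 5 and 3 ways, respectively, so neither has a value for a single library.

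*Dbp* (ENSMUSG00000059824.4, chr7:52960458-52965525, plus strand), the D-box activator that carries the rhythm to other genes, had a mean of 1983, at percentile 93.2, and 673 per kb, 9.71 times *Arntl*. Its level was 1891 in A, 1932 in B, 1935 in C and 2172 in D. A, B and C were nearly equal and D stood above them, at 1.15 times A, a ratio above that of 14.5% of the checked genes. With trimmed-mean scaling the lowest library was B, with upper-quartile scaling it was C, and D stayed the highest in both. In the wider range *Dbp* has 2 solutions. Exons of *Sphk2* on the opposite strand cover 491 bases of its own. Within libraries *Dbp* was 8.21 times *Arntl* per kb in A, 11.9 in B, 8.68 in C and 10.8 in D, and 2.41, 3.00, 2.84 and 3.21 times *Per2*.

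Among the 5 members with 1 solution the order per kb was *Dbp*, *Cry2*, *Cry1*, *Per2* and *Arntl* in B, C and D. In A, *Cry2* and *Dbp* changed places, with a ratio of *Dbp* to *Cry2* of 0.963 whose interval, 0.916 to 1.01, includes 1. Over the libraries the ranges of neighbours overlap, with 642 to 738 per kb for *Dbp*, 404 to 667 for *Cry2*, 240 to 424 for *Cry1* and 219 to 266 for *Per2*. By these ranges only *Arntl*, with 55.1 to 78.2, was clear of its neighbour in this list. Within each library, though, *Cry2* lay above *Cry1*, by 1.40 to 1.78 times per kb, and the lowest interval began at 1.31. The spread of the remaining 5 genes is not known, so their neighbours in the order cannot be told apart by it.

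**Figure D4:**
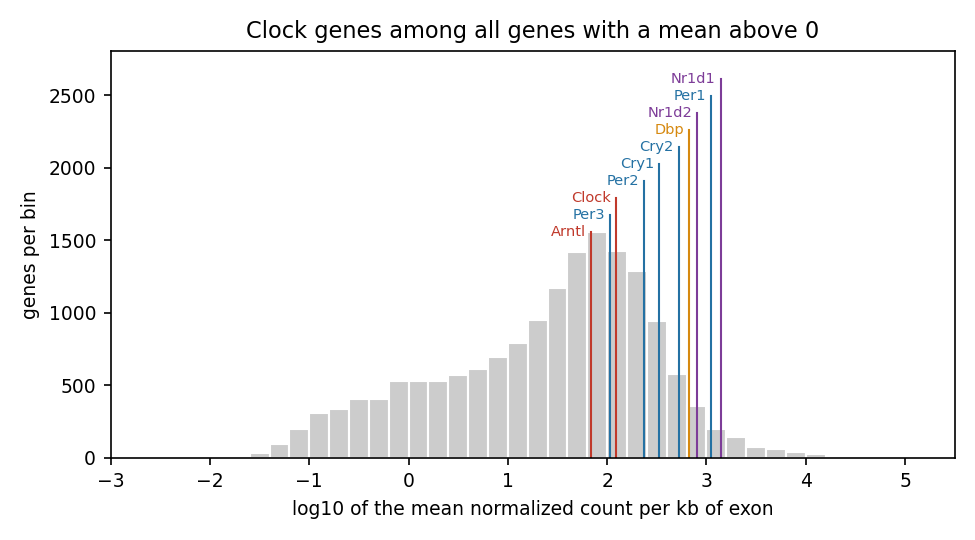
Distribution of the level of all 16338 measured genes of known length, as the log10 of normalized counts per kb of exon (x axis) against genes per bin (y axis), with the 10 core clock genes as coloured lines whose heights only separate the names. *Arntl*, *Per3* and *Clock* stand near the peak of the distribution, and *Nr1d1* and *Per1*, at 1389 and 1107 per kb, in its upper tail.

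The wider clock was present as well. Of 22 other clock genes, 21 had a mean above 0, with a median of 235 per kb. The highest means were those of the casein kinase gene *Csnk1d*, 3991, of *Tef*, a PAR bZIP factor related to *Dbp*, 3809, and of the deubiquitinase gene *Usp2*, 2888. The lowest were *Rorb*, listed at 0, *Fbxl21*, an F-box protein gene, at 17.4, and *Timeless* at 63.6. For 16 of them the reads could be recovered in 1 way, and the median ratio of highest to lowest library was 1.39, beside 1.42 for the 5 members and 1.29 for the 400 checked genes.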

How the data were processed

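RNA from FACS-purified HF-SCs was sequenced by the authors in 2 control and 2 induced libraries, made with a kit that keeps the strand. Per the submitters' processing notes the reads were aligned with Hisat2 2.1.0 to mm10 (the methods write NCBI37/mm10), converted with SAMtools 1.3.1, counted with HTSeq and compared with DESeq2; the sources used here do not give other versions or the annotation. The deposited table holds a signal, the authors' mean of normalized counts over all 4 libraries, and 5 columns of their comparison (log2 fold change, standard error, Wald statistic, raw and adjusted p-values), which were not used.

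Whole reads per library were solved from the 15 digits of the mean. Up to a mean of 500 no limit was set on any library, and all 2898 genes with a mean over 20 to 100 and 400 drawn with a mean over 100 to 500 had exactly 1 solution. From 500 to 6500 every library was required to lie between 0.5 and 2 times the mean, which held for 99.0% of those 400 genes and for 89.8% of the 2898, and higher means were not tried. The suprabasal gene *Lor*, with a mean of 604, had no solution in this range. The steps were tested on simulated data, but not at means as high as those of *Cry2* and *Dbp*. For means over 100 the test required the true reads to be among the solutions, not a single solution. Lengths, places and 3′UTRs came from GENCODE vM1 on NCBIM37 (95.9% of the genes with a mean above 0 matched by symbol), promoters and the microRNA from RefSeq GRCm38.p6, and no coordinate was converted. All 10 members are named, and of the other clock genes the 3 highest and 3 lowest means, with 4 more named in the closing section after their values were seen; a withheld item is not reported here. The members and lists were chosen with earlier results of these data known. Scripts ran in Python 3.11.15 with scipy 1.17.1, matplotlib 3.10.9, pandas 2.3.3 and numpy 2.4.6.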

Additional observations from a re-analysis of the deposited data

How the results depend on the processing

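No paired analysis was possible because the table gives no value for a labelled library. The median of the members was 428 per kb with exon unions, 583 with the longest transcript and 1081 with the longest coding sequence, a length added after the data were seen. Their median percentile was 91.5 among genes with a mean above 0, 88.6 among those over 10 and 86.0 among those over 50. The E-box count went from 2 to 4 with CACGTT allowed, and the seed count from 1 to 3 with bases 2 to 7. Members with 1 solution went from 5 to 3 when libraries between 0.3 and 3 times the mean were allowed, a range added after the data were seen, and *Cry2* and *Dbp* were lost. The median ratio of highest to lowest library was 1.42, 1.57 with trimmed-mean and 1.58 with upper-quartile scaling, and between 1.16 and 1.42 without 1 library. The trimmed-mean factors of the libraries were 0.946, 1.05, 1.05 and 0.964 in A to D. CPM values and the RefSeq coding length were not run, for want of library totals and of a protein table. Depth limits *Arntl* most, with 143 reads in D.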

Other observations

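Since the libraries carry no group, their values are given here as they fall. The 4 genes of the glucocorticoid and handling list whose reads could be recovered shared 1 pattern, higher in A and D than in B and C. *Fkbp5*, a chaperone partner of the glucocorticoid receptor, had 597 in A, 278 in B, 358 in C and 625 in D. *Tsc22d3* had 711, 316, 307 and 726 in the same order, *Zbtb16* 3379, 1449, 1475 and 3494, and *Klf9* 3123, 2251, 2050 and 2933. The values of *Tsc22d3*, *Zbtb16* and *Klf9* rest on the narrower range of 0.5 to 2 times the mean, and the wider one was not tried for them. A and D were the highest pair in all 4 recovered genes of the list and in *Cry1* and *Cry2* among the 5 members with 1 solution. They were also the highest pair in 6 of the 16 other clock genes with 1 solution (37.5%) and in 20.2% of the 400 checked genes. *Per2* and *Arntl* had A and C as the highest pair and *Dbp* C and D. Whether the cryptochromes and the glucocorticoid-responsive genes vary together for a shared reason was not tested, and 4 unlabelled libraries are too few for a correlation.

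Of the other clock genes, the repressor genes *Bhlhe40* and *Nfil3* had A as the lowest library. The 4 genes given here were chosen after their values were seen, and their library values rest on the narrower range. *Bhlhe40* had 1639 in A, 2396 in B, 3074 in C and 2174 in D, and *Nfil3*, which competes with DBP at the D-box, had 1475, 2100, 2218 and 1823. C was the highest library in both. *Hlf*, a PAR bZIP factor related to *Dbp*, was nearly even, with 719, 688, 697 and 740, a ratio of 1.08 that is below those of all but 4.0% of the checked genes. *Wee1*, a cell cycle kinase gene driven by the clock, had 645, 469, 449 and 525, with A and D the highest.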
